A study of Mus musculus with 4 samples.

Results

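The circular RNAs (circRNAs) of 5 genes of Wnt signalling and of the catenin family were followed through mouse lung development: Lrp6, Dvl2, Ctnnb1, Lef1 and Jup. The members are all circRNAs in the deposited lists whose host gene is one of these 5, and there are 18 of 13499 distinct circRNAs in all. They carried 129 of 25983 listed junction reads in the pseudoglandular library, or 0.4965% (exact Clopper-Pearson 95% interval 0.4147% to 0.5896%). They carried 160 of 31218 in the canalicular library (0.5125%, 0.4363% to 0.5981%) and 187 of 36156 in the terminal sac library (0.5172%, 0.4459% to 0.5966%). In the alveolar library they carried 115 of 28332 (0.4059%, 0.3352% to 0.487%). The intervals of all 4 shares overlap. This sum rests in part on circles inside exon 16 of Dvl2 and exon 14 of Jup, whose splice signals lie on the strand opposite to the deposited host. Without them the reads were 116, 108, 116 and 39, or 0.4464% (0.369% to 0.5352%), 0.346% (0.2839% to 0.4175%), 0.3208% (0.2652% to 0.3847%) and 0.1377% (0.0979% to 0.1881%), and the alveolar share lay below the other 3. With each read name counted once, the terminal sac sum over all 18 circles was 167 in place of 187. The 116 terminal sac reads also hold 20 reads of a Lrp6 circle that are listed under another Lrp6 circle too. Leaving that circle out as well gave 96 reads, or 0.2655% (0.2151% to 0.3241%).

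In canonical Wnt signalling a Wnt protein binds a Frizzled receptor together with the co-receptor Lrp6 or Lrp5. Dishevelled proteins such as Dvl2 carry the signal inside the cell, the complex that marks beta-catenin (Ctnnb1) for destruction is held back, and beta-catenin enters the nucleus to act with Lef1 or another TCF/LEF factor. Beta-catenin and plakoglobin (Jup, also called gamma-catenin) also anchor cadherins in adherens junctions, and plakoglobin is a part of desmosomes. In the developing lung, Wnt signalling is known for its part in specifying the lung field, in branching and in the growth of the mesenchyme. A circRNA forms when a splice donor joins an acceptor that lies upstream of it, which leaves a closed ring without ends, and it is recognised in sequencing by reads across that back-splice junction.

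Total RNA was sequenced from lung tissue of C57BL/6 mice with no treatment or mutation named. The pseudoglandular library is from embryonic day 14.5, the canalicular from embryonic day 16.5, the terminal sac library from embryonic day 18.5 and the alveolar one from newborn day 7.5. Each stage is 1 library, so differences have no replicate check and carry no p-value, and the sources used here do not say how many animals stand behind a library. All intervals cover counting error only, and since reads were not tagged as molecules, copies made by PCR would make them too narrow. The libraries listed 4599, 4947, 5564 and 4474 circRNAs in order of stage, none with fewer than 2 junction reads.

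The circles of Lrp6 show how the junctions are built and which parts they share. Each sequence below is read from the main GENCODE M21 transcript of the gene, which has 23 exons, 5′ to 3′ on the minus strand of mm10, and spans a junction of a circle on chromosome 6. The last 30 bases of the downstream exon are in lower case and the first 30 bases of the upstream exon in capitals.
Lrp6 exons 4 to 7: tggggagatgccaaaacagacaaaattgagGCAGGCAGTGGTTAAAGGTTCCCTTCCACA
Lrp6 exons 4 to 7, inner end: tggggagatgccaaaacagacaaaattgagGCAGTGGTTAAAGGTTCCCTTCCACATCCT
Lrp6 exons 3 to 7: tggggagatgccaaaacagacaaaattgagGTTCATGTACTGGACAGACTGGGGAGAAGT
Lrp6 exons 2 to 7: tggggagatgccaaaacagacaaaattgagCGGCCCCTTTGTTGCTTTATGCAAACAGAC
Lrp6 exon 2: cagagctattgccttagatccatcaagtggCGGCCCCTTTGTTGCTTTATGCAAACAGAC
The first 4 share the end of exon 7 and differ only in the point that it was joined to. The exon 2 circle and the exon 2 to 7 circle share the start of exon 2. Exon 4 begins with the letters GCAG in tandem, and the inner end lies 4 bases into the exon, after the first copy.

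Lrp6, the Wnt co-receptor, had 8 circles with 310 junction reads over the 4 libraries, more than any of the other 4 genes. Its circles had 90 pseudoglandular, 86 canalicular, 97 terminal sac and 37 alveolar reads. As shares of listed junction reads these are 0.3464% (0.2786% to 0.4256%), 0.2755% (0.2204% to 0.3401%), 0.2683% (0.2176% to 0.3272%) and 0.1306% (0.09197% to 0.18%). The alveolar share lay below those of the 3 embryonic libraries, whose intervals overlap one another. The alveolar share was 2.65-fold lower than the pseudoglandular share (95% interval 1.79 to 4.002) and 2.05-fold lower than the terminal sac share (1.39 to 3.09). The canalicular share was 1.26-fold lower than the pseudoglandular (0.925 to 1.71) and the terminal sac 1.03-fold lower than the canalicular (0.759 to 1.39), and neither passed. A host or circle was called higher or lower where its share differed at least 2-fold and the interval excluded 1 and the 2 libraries compared held at least 10 of its junction reads. In bulk tissue, fewer cells that make a circle and fewer copies of it per cell cannot be told apart.

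**Figure D1:**
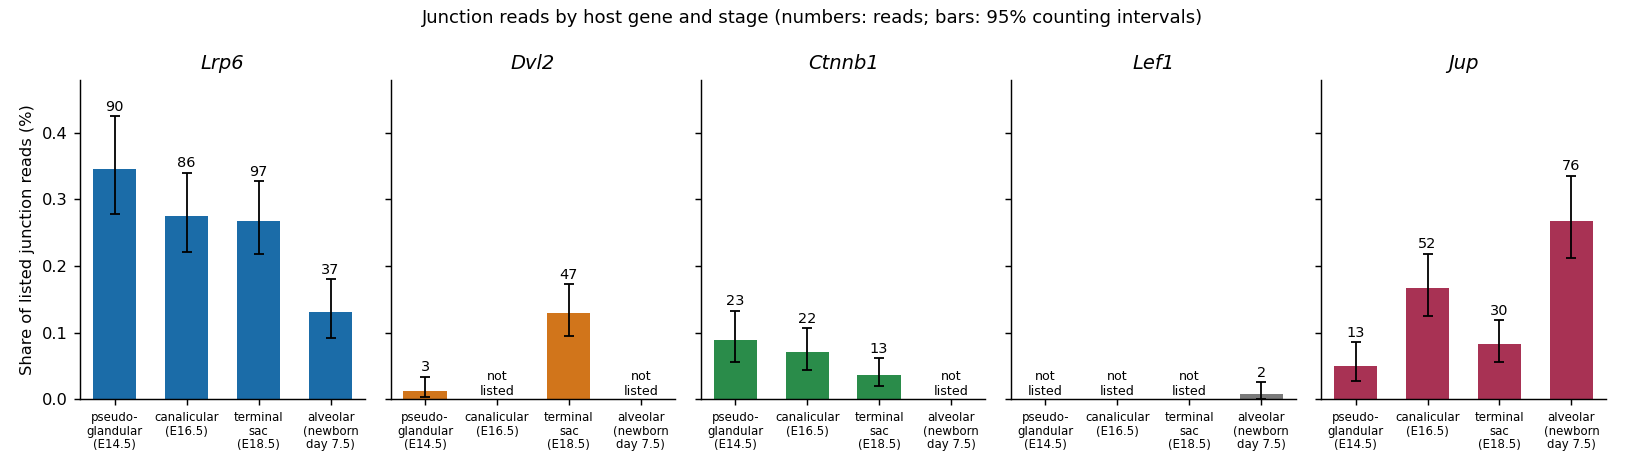
Share of listed junction reads (%) for each of the 5 host genes in the 4 libraries, 1 library per stage, with 95% Clopper-Pearson intervals as error bars and the number of junction reads above each bar. Lrp6 goes from 90 reads to 37, Jup from 13 to 76, and Dvl2 reaches 47 only in the terminal sac library.

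The terminal sac value of Lrp6 lists some reads more than once. All 20 reads of the inner-end circle (chr6:134506196-134513415, 894 exonic bases) carry read names that also stand among the 40 reads of the outer exon 4 to 7 junction, and no other library listed the inner end. Counted once per read name, Lrp6 had 77 reads in the terminal sac library, and the alveolar share was then 1.63-fold lower, which is not called. The call was also lost at 1.88-fold with scaling by the median of ratios and at 1.97-fold with scaling by non-junction reads. The comparison with the pseudoglandular library has no such reads on either side.

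The exon 4 to 7 circle (chr6:134506196-134513419, 898 exonic bases, all coding) was the most abundant Lrp6 circle in the 3 embryonic libraries. It had 60, 57, 40 and 18 reads in order of stage. Its share was 3.64-fold lower in the alveolar than in the pseudoglandular library (2.12 to 6.54). The steps from each stage to the next were 1.27-fold (0.865 to 1.85), 1.65-fold (1.08 to 2.54) and 1.74-fold (0.976 to 3.23) lower, and none of the 3 was called. With the inner end merged into it, the last step was 2.61-fold lower and called and the step before it 1.10-fold lower. With each read name also counted once, these were again 1.74-fold and 1.65-fold lower and not called.

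The same circle can be set against reads that align linearly across its ends. The junction ratio, in which junction reads count 2-fold because a linear molecule can give reads at either end, was 10.1% (7.85% to 12.7%) in the pseudoglandular library, with 1067 non-junction reads. It was 8.13% (6.25% to 10.3%) in the canalicular, 6.90% (5.003% to 9.23%) in the terminal sac and 3.75% (2.25% to 5.83%) in the alveolar library. The ratio was lower in each later library than in the one before. The odds of a junction read were 2.84-fold lower in the alveolar than in the pseudoglandular library (Woolf 95% interval 1.67 to 4.81) and 1.88-fold lower than in the terminal sac library (1.08 to 3.28), while the intervals of the first 2 steps included 1. Non-junction reads across these ends numbered 1289, 1079 and 925 in the later libraries, so linear reads at these ends varied less between libraries than the junction reads did.

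The exon 2 circle (chr6:134541652-134542045, 394 bases, all coding) followed another course. It had 28 pseudoglandular, 16 canalicular, 21 terminal sac and 19 alveolar reads. The canalicular share was 2.10-fold lower than the pseudoglandular (1.10 to 4.16), and its odds against linear reads were 1.99-fold lower (1.08 to 3.66). With scaling by non-junction reads the share was 1.86-fold lower and not called. Between the alveolar and pseudoglandular libraries its share was 1.61-fold lower with an interval that included 1 (0.866 to 3.05). Its junction ratio was 5.13% (3.45% to 7.29%), 2.62% (1.51% to 4.20%), 4.45% (2.79% to 6.69%) and 4.18% (2.55% to 6.42%). The canalicular library was the lowest of the 4.

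Set directly against each other, the exon 4 to 7 circle had 2.14 times the reads of the exon 2 circle in the pseudoglandular and 3.56 times in the canalicular library, then 1.91 times at the terminal sac and 0.947 times at the alveolar stage. The balance between the circles was 2.24-fold lower in the alveolar than in the pseudoglandular library (1.03 to 4.86). For the 3 consecutive steps the intervals included 1 (0.811 to 3.32, 0.868 to 3.94 and 0.871 to 4.52). Both circles come from the same gene and library, so library scaling does not enter this ratio.

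**Figure D2:**
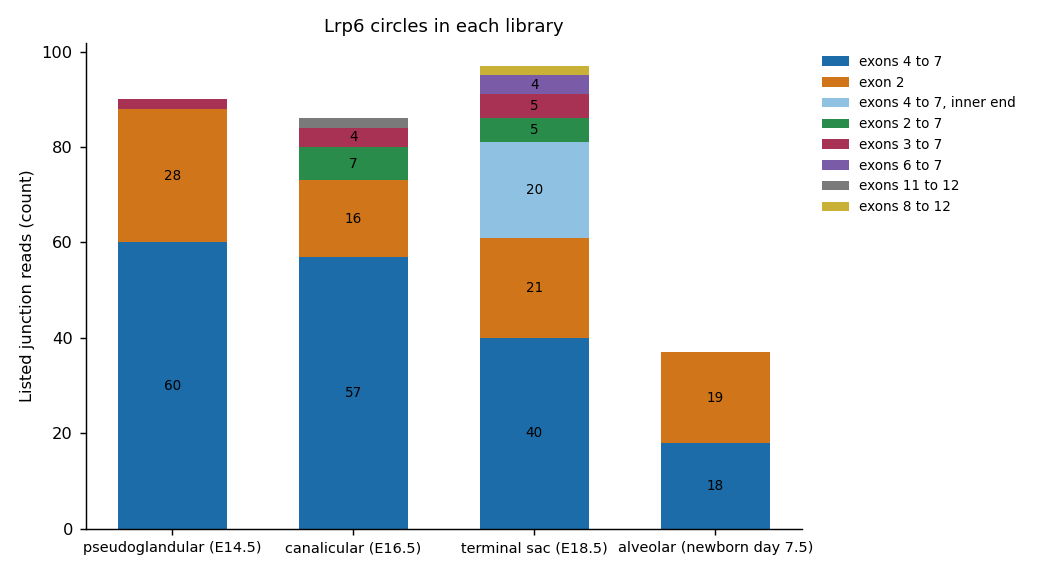
Listed junction reads of each Lrp6 circle (count, stacked) in the 4 libraries. The exon 4 to 7 circle goes from 60 reads to 18 and the exon 2 circle from 28 to 19. The 20 reads of the inner end in the terminal sac library are also among the 40 of the exon 4 to 7 circle.

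The remaining Lrp6 circles were rarer and mostly use the end of exon 7 again. The exon 2 to 7 circle (chr6:134506196-134542045, 1490 bases) had 7 reads in the canalicular and 5 in the terminal sac library. The exon 3 to 7 circle (chr6:134506196-134520593, 1096 bases) had 2, 4 and 5 reads in the 3 embryonic libraries and was not listed in the alveolar one. Reads that end at exon 7 made up 62 of the 90 pseudoglandular, 68 of the 86 canalicular, 74 of the 97 terminal sac and 18 of the 37 alveolar Lrp6 reads. Circles of exons 6 to 7 (4 reads, terminal sac), 11 to 12 (2 reads, canalicular) and 8 to 12 (2 reads, terminal sac) complete the list. All 8 lie within coding sequence, in the part of the gene that encodes the extracellular domain.

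Dvl2, which encodes an adaptor that binds activated Frizzled and recruits Axin, had 2 circles in different libraries. A circle inside exon 16 (chr11:70011168-70011595, 428 bases) had 47 reads in the terminal sac library and was listed in no other. It was the most abundant circle of the 5 genes in that library. With 3 reads in place of an unlisted value, the terminal sac share was at least 13.5-fold higher than the canalicular (interval at that bound 4.35 to 67.9). The alveolar share was at least 12.3-fold lower than the terminal sac (3.95 to 61.7). As point estimates these bounds hold if the unlisted libraries had 3 or fewer reads at these coordinates, and counting error allows smaller differences.

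This circle lies where another gene is annotated on the opposite strand. Exon 16 (70010877 to 70012301) is untranslated sequence found in 2 of 7 annotated Dvl2 transcripts, and it overlaps Acadvl, which encodes the very long-chain acyl-CoA dehydrogenase of mitochondrial fatty acid oxidation. The circle begins at the same base as exon 14 of Acadvl (70011168 to 70011265), also spans exon 13, and ends 3 bases inside the outer border of exon 12 (70011536 to 70011598). The 2 bases on each side of the circle read as the splice signals GT and AG on the minus strand, the strand of Acadvl, and not on that of Dvl2. The deposited host of this circle is Dvl2, no circle in the files has Acadvl as its deposited host, and the lists hold no strand column. The 47 reads have 47 different names but fall into 8 alignment patterns, of which 7 leave the start of the read unaligned, 0 the end and 1 both. With 1329 non-junction reads its junction ratio was 6.61% (4.92% to 8.64%), and the files do not say which gene those reads came from.

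The other Dvl2 circle joined exons 9 and 2 (chr11:70004805-70006590, 840 bases, all coding) and had 3 reads in the pseudoglandular library only. This is the Dvl2 circle whose ends lie at exon borders of its host, and its reads are too few for any comparison.

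**Figure D3:**
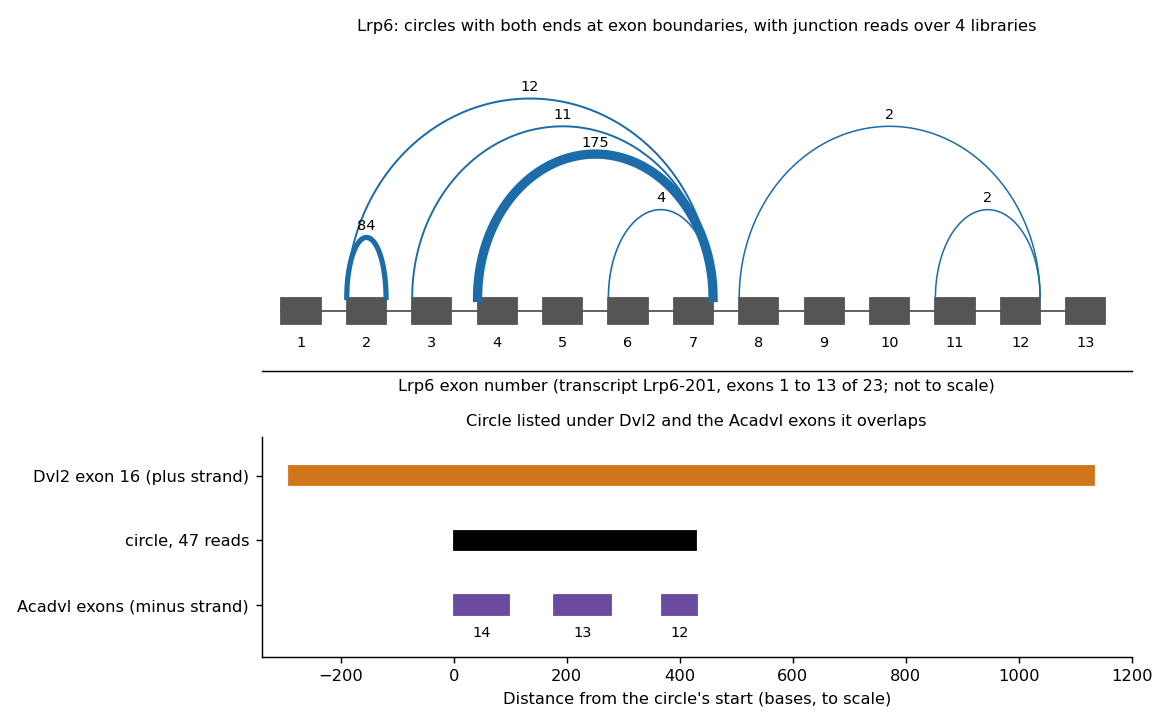
Above, arcs join the first and last exon of the 7 Lrp6 circles with both ends at exon borders, with junction reads summed over 4 libraries beside each arc (175 for exons 4 to 7, 84 for exon 2) and exons not drawn to scale. Below, the circle with 47 reads listed under Dvl2 is drawn to scale by distance from its start (bases), with Dvl2 exon 16 and the Acadvl exons 12 to 14 it overlaps.

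Ctnnb1, which encodes beta-catenin, had 4 circles, and none of them was listed in the alveolar library. The gene had 23 reads in the pseudoglandular (0.08852%, 0.05612% to 0.1328%), 22 in the canalicular (0.07047%, 0.04417% to 0.1067%) and 13 in the terminal sac library (0.03596%, 0.01915% to 0.06148%). The alveolar share was at least 8.36-fold lower than the pseudoglandular, with the unlisted value set to 3 reads (interval at that bound 2.53 to 43.5). Neighbouring stages were not called. The canalicular share was 1.26-fold lower than the pseudoglandular (0.669 to 2.36), the terminal sac 1.96-fold lower than the canalicular (0.945 to 4.24), and the alveolar at least 3.40-fold lower than the terminal sac with an interval at that bound of 0.933 to 18.6.

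The main Ctnnb1 circle (chr9:120950173-120959529) runs from exon 2 to a point inside the last exon, 15, and had 23, 13 and 13 reads in the embryonic libraries. Its 2406 exonic bases hold the start codon, the stop codon and 2343 coding bases, if the ring keeps every exon of the annotated transcript between its ends. The lists record only the ends and not the exons inside. The circle ends 12 bases after the stop codon (120959515 to 120959517), where the transcript goes on with the letters GT. The canalicular share of this circle was 2.13-fold lower than the pseudoglandular (1.03 to 4.57), a call that the host as a whole did not reach and that was lost at 1.88-fold with scaling by non-junction reads.

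The difference between circle and host in the canalicular library comes from 3 further Ctnnb1 circles listed there and nowhere else. They span exons 2 to 10 (4 reads), 8 to 15 (3 reads) and 2 to 5 (2 reads). The exon 8 to 15 circle shares the end inside exon 15, and the other pair shares the start of exon 2. Together these 9 reads have 2 alignment patterns per circle, the fewest any listed circle of the 5 genes has. This is not particular to Ctnnb1. Of the 32 entries of member circles by library, 11 had 1 or 2 patterns, with 2 to 5 reads each.

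Against linear reads the main Ctnnb1 circle was a minor product. Its junction ratio was 1.09% (0.693% to 1.63%) in the pseudoglandular, 0.671% (0.358% to 1.14%) in the canalicular and 1.21% (0.648% to 2.06%) in the terminal sac library. Non-junction reads across its ends were 4173, 3847 and 2120. The odds of a junction read were 1.61-fold lower in the canalicular than in the pseudoglandular library (0.821 to 3.14) and 1.81-fold higher in the terminal sac than in the canalicular (0.852 to 3.87), and both intervals included 1. Circle and linear reads both had their lowest embryonic number in the terminal sac library, the circle jointly with the canalicular one.

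Lef1, the TCF/LEF transcription factor that binds DNA together with beta-catenin, was the least represented host. Its circle of exons 4 to 8 (chr3:131184643-131194787, 594 bases, all coding) had 2 reads in the alveolar library and was not listed in the others. With 174 non-junction reads the junction ratio was 2.25% (0.276% to 7.77%). These reads are too few for any comparison of Lef1 circles between stages.

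Jup, which encodes plakoglobin, ran opposite to Lrp6 and Ctnnb1 between the pseudoglandular and the alveolar library. It had 13 reads in the pseudoglandular (0.05003%, 0.02664% to 0.08554%), 52 in the canalicular (0.1666%, 0.1244% to 0.2184%), 30 in the terminal sac (0.08297%, 0.05599% to 0.1184%) and 76 in the alveolar library (0.2682%, 0.2114% to 0.3356%). From highest to lowest the order was alveolar, canalicular, terminal sac and pseudoglandular. The intervals of the first pair in that order overlap, as do those of the last pair, and the canalicular and terminal sac intervals do not. The canalicular share was 3.33-fold higher than the pseudoglandular (1.79 to 6.67), the terminal sac 2.01-fold lower than the canalicular (1.26 to 3.26), and the alveolar 3.23-fold higher than the terminal sac (2.09 to 5.11). The alveolar share was 5.36-fold higher than the pseudoglandular (2.96 to 10.5). The lower terminal sac share stands at the 2-fold limit, and by the median of ratios it fell just short of it. Lrp6 and Ctnnb1 were also lower in the terminal sac than in the canalicular library (1.03-fold and 1.96-fold, not called).

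Nearly all of this was 1 circle inside exon 14, the last exon of Jup (chr11:100370780-100371144, 365 bases), which lies wholly in untranslated sequence. It had 13, 52, 24 and 76 reads, in 13, 50, 29 and 59 alignment patterns. It was the most abundant circle of the 5 genes in the alveolar library. Between the canalicular and terminal sac libraries it was 2.51-fold lower (1.52 to 4.26), and between the terminal sac and alveolar libraries 4.04-fold higher (2.53 to 6.69).

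Against linear reads, the Jup circle had the highest junction ratio among the circles of the 5 genes in each library, although its pseudoglandular interval overlaps that of Lrp6 exons 4 to 7. Its junction ratio was 11.0% (6.06% to 17.7%), 24.0% (18.8% to 29.8%), 12.2% (8.10% to 17.4%) and 19.2% (15.6% to 23.2%), with 211, 329, 344 and 641 non-junction reads. The canalicular and alveolar values are the higher ones. The odds of a junction read were 2.50-fold higher in the canalicular than in the pseudoglandular library (1.34 to 4.65), 2.24-fold lower in the terminal sac than in the canalicular (1.36 to 3.70), and 1.68-fold higher in the alveolar than in the terminal sac (1.04 to 2.69). The alveolar odds were 1.87-fold higher than the pseudoglandular (1.03 to 3.40), a smaller difference than in the share, as linear reads at these ends also numbered more in the alveolar library.

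The ends of the Jup circle, too, do not carry the splice signals of their host's strand. Jup is transcribed from the minus strand, and the bases beside the circle read GT and AG on the plus strand. No other annotated gene overlaps it, and the 5 bases repeated at its ends allow no shift that would give these signals on the strand of Jup. How often this occurs was counted only for circRNAs without both ends at exon borders. Those with both ends at exon borders, 10023 of 12941 over all hosts, were left out of the count. Of 645 circRNAs with ends inside exons and readable flanks, 336 had the signals on the host's strand, 309 (47.9%) on the opposite strand and 0 on neither. Since all of these had the signals on some strand, having them does not set the Jup and Dvl2 circles apart. Whether the lists had been filtered for these signals was not checked, so the 0 is not read as a result. Which strand the RNA came from was not tested, since the lists do not record it.

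**Figure D4:**
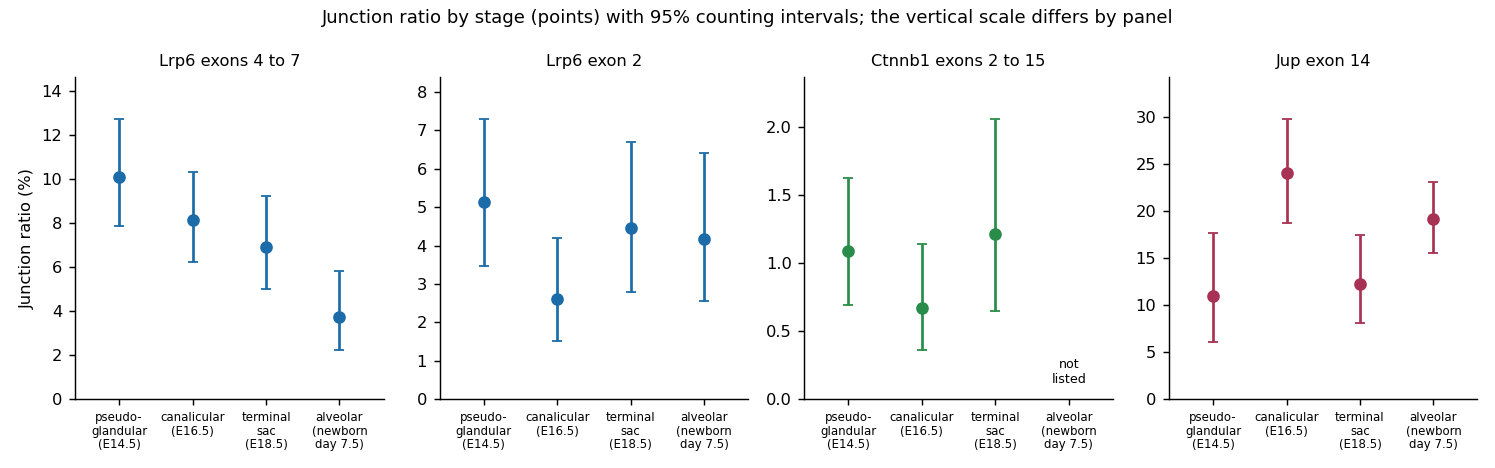
Junction ratio (%) of 4 circles by library, as points with 95% counting intervals, on a vertical scale of its own in each panel. Lrp6 exons 4 to 7 goes down from 10.1% to 3.75%, Lrp6 exon 2 is lowest in the canalicular library at 2.62%, and Jup exon 14 is highest there at 24.0%.

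Jup had 2 further circles, both in the terminal sac library and both with ends at exon borders. The circle of exons 2 to 13 (chr11:100372296-100386388, 2260 exonic bases) had 4 reads and, like the main Ctnnb1 circle, spans the start and the stop codon. The circle of exons 3 to 4 (chr11:100383007-100383654, 499 bases, all coding) had 2 reads.

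Across the 5 genes, 13 of the 18 circles (72.2%) had both ends at exon borders of an annotated transcript, against 10023 of 12941 (77.5%) over all hosts. Of these 13, the first exon was exon 2 in 6 (46.2%), against 30.4% over all hosts. Only the Lrp6 exon 2 circle was a ring of 1 whole exon (7.69%, against 4.23%). With 13 circles these shares are a description. Most circles were rare: 12 of the 18 were listed in 1 library, 3 in all 4 libraries, and 10 had fewer than 5 reads in all.

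Read against all hosts, the number of members called per comparison has to be set beside how often any host was called, and the comparisons share libraries. In the canalicular against the pseudoglandular library, 1 of 3 measured members was higher (Jup) and 0 lower, where 8.87% of 1127 hosts were higher and 11.3% lower. In the terminal sac against the canalicular library, 1 of 4 was higher (Dvl2, all in the exon 16 circle) and 1 lower (Jup), where 12.4% of 1236 hosts were higher and 12.1% lower. In the alveolar against the terminal sac library, 1 of 4 was higher (Jup) and 2 lower (Lrp6 and Dvl2, the latter again all in the exon 16 circle), where 12.0% of 1197 hosts were higher and 12.4% lower. In the alveolar against the pseudoglandular library, 1 of 3 was higher (Jup) and 2 lower (Lrp6 and Ctnnb1), where 12.9% of 1084 hosts were higher and 16.7% lower. All 3 measured members were called in this last comparison, in different directions. The Dvl2 calls rest on the circle with 1 end at an Acadvl exon border and the other 3 bases inside one. The Jup calls rest on the exon 14 circle with splice signals on the other strand.

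The median log2 ratio over all hosts was 0.012, 0.021, -0.23 and -0.12 in these 4 comparisons. The Lrp6 ratios of -1.04 and -1.41 in the comparisons with the alveolar library stand beside medians that were themselves below 0. Eln, the elastin gene, alone had 1665 of the 28332 alveolar reads and 3 of the pseudoglandular. How far these reads lower the other alveolar shares was not tested, beyond the other scalings given with the processing.

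Per circle, 1 of 4 measured members was higher (Jup exon 14) and 2 lower (Lrp6 exon 2 and Ctnnb1 exons 2 to 15) in the canalicular against the pseudoglandular library, where 8.16% of 1017 circRNAs were higher and 9.83% lower. In the terminal sac against the canalicular library, 2 of 7 were higher (Dvl2 exon 16 and the Lrp6 inner end) and 1 lower (Jup exon 14), where 8.94% of 1208 were higher and 11.2% lower. In the alveolar against the terminal sac library, 1 of 6 was higher (Jup exon 14) and 2 lower (Dvl2 exon 16 and the Lrp6 inner end), where 10.5% of 1123 were higher and 11.0% lower. In the alveolar against the pseudoglandular library, 1 of 4 was higher (Jup exon 14) and 2 lower (Lrp6 exons 4 to 7 and Ctnnb1 exons 2 to 15), where 12.2% of 933 were higher and 17.4% lower. The calls on the Lrp6 inner end rest on reads that the outer junction also lists.

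The balance of higher and lower calls over all features depends on the scaling. By non-junction reads, 169 hosts were higher and 100 lower in the canalicular against the pseudoglandular library, in place of 100 and 127, and 130 and 76 circRNAs in place of 83 and 100. By the median of ratios, 141 circRNAs were higher and 92 lower in the alveolar against the terminal sac library, in place of 118 and 123, and 147 and 128 against the pseudoglandular, in place of 114 and 162. No member host reversed its direction under either scaling.

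**Figure D5:**
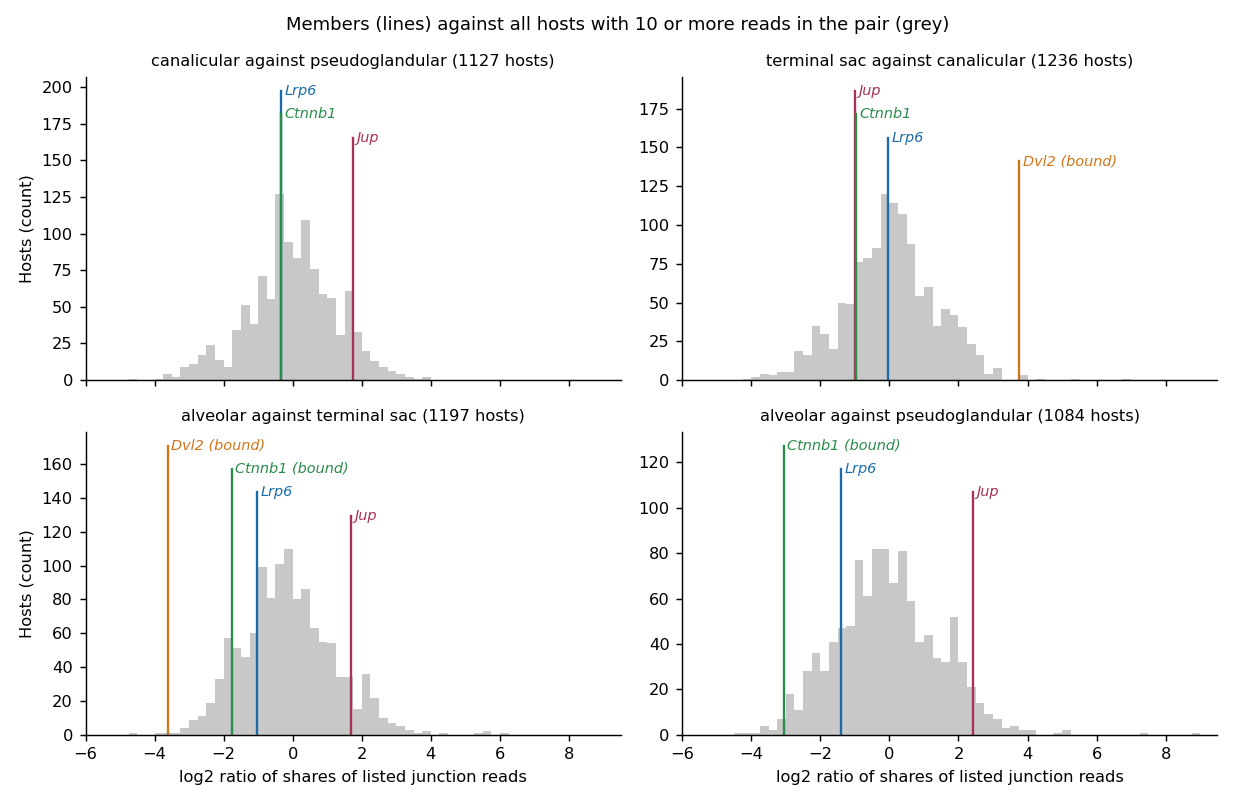
Number of hosts (count) by log2 ratio of their shares of listed junction reads in 4 comparisons of libraries, in grey, with the members as lines of arbitrary height. Jup lies to the right of the bulk of hosts in 3 panels and left of it in the terminal sac panel. Values labelled bound use 3 reads for an unlisted host.

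By pattern over the 4 libraries, the hosts most like each member were sought among 502 with 50 or more reads in all. The measure was the largest difference between the centred log2 shares, with 0.5 reads added to each count. For Lrp6 the closest were Stag1, a cohesin subunit gene, with 51, 48, 56 and 22 reads (largest difference 0.056) and Prr14l with 55, 54, 56 and 24 (0.094). For Jup they were Dock4, a gene for a guanine nucleotide exchange factor of small GTPases, with 7, 32, 19 and 41 reads (0.12) and Vwa8 with 4, 15, 11 and 30 (0.24). For Ctnnb1 they were Ube2cbp with 15, 19, 21 and 0 reads (0.71) and Dpy19l1 with 32, 14, 25 and 0 (0.82). For Dvl2 the closest were Spopl with 30, 4, 66 and 5 reads (2.07) and Os9 with 0, 0, 52 and 0 (2.14). The measure is sensitive to single reads at such low counts. Dvl2 had 3 pseudoglandular reads, all of its exon 2 to 9 circle, where Os9 had 0. The Dvl2 exon 16 circle, with 47 reads, was listed in the terminal sac library only, as Os9 was.

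The wider Wnt pathway was described from lists of 117 genes other than the members, of which 44 were listed as circRNA hosts in at least 1 library. By role, 2 of 25 ligand and secretion genes, 6 of 19 receptor genes, 2 of 18 extracellular and receptor inhibitors, 20 of 34 cytoplasmic and 14 of 21 nuclear genes were listed. Few had the 10 reads needed in a pair: 13, 14, 14 and 13 genes in the 4 comparisons. In the canalicular against the pseudoglandular library 2 were higher and 4 lower, in the terminal sac against the canalicular 3 and 1, in the alveolar against the terminal sac 1 and 2, and in the alveolar against the pseudoglandular 2 and 2. The median log2 ratios of the measured genes were -0.042, 0.55, -0.25 and 0.51, beside the medians over all hosts given above. Most measured genes passed in neither direction: 7 of 13, 10 of 14, 11 of 14 and 9 of 13. The shares of all hosts called in each comparison are those given above for the members, from 8.87% to 16.7% in a direction.

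Among ligands, Rspo2, which encodes an R-spondin that strengthens Wnt signalling at the receptor, had 13 reads in the pseudoglandular and 3 in the canalicular library, 5.21-fold lower (1.43 to 28.5), and no alveolar reads, at least 4.73-fold lower than the pseudoglandular share. Among receptors, Lrp5, the paralog of Lrp6, had 3, 4, 18 and 12 reads and was 3.89-fold higher in the terminal sac than in the canalicular library (1.28 to 15.8). In the alveolar against the pseudoglandular library Lrp5 was called only with the other scalings, 3.99-fold higher by the median of ratios (1.08 to 22.02) and 4.12-fold by non-junction reads (1.11 to 22.8). Ror1, a receptor tyrosine kinase for non-canonical Wnt signals, was 2.40-fold lower in the canalicular than in the pseudoglandular library (1.03 to 6.07), with 18, 9, 14 and 13 reads. By non-junction scaling it was 2.13-fold lower (0.908 to 5.38) and not called.

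Among cytoplasmic genes, Macf1, a cytoskeletal linker gene, had 5, 21, 44 and 74 reads. It was 3.50-fold higher in the canalicular than in the pseudoglandular library (1.28 to 11.9), 2.15-fold higher in the alveolar than in the terminal sac (1.46 to 3.19) and 13.6-fold higher in the alveolar than in the pseudoglandular (5.56 to 43.03). Tnks2, a tankyrase gene whose product marks Axin for breakdown, was 3.40-fold lower in the canalicular than in the pseudoglandular library (1.28 to 10.5), with 17, 6, 7 and 9 reads. Tnik, a kinase gene, had 0, 0, 16 and 2 reads. It was at least 4.61-fold higher in the terminal sac than in the canalicular library (interval at that bound 1.32 to 24.7). In the alveolar library it was 6.27-fold lower than in the terminal sac (1.47 to 56.2). Csnk1g3, a casein kinase 1 gene, had 15, 11, 20 and 4 reads and was 3.92-fold lower in the alveolar than in the terminal sac library (1.31 to 15.8) and 4.09-fold lower than in the pseudoglandular (1.303 to 16.9). Usp34, a deubiquitinase gene, had 7, 17, 6 and 11 reads and was 3.28-fold lower in the terminal sac than in the canalicular library (1.23 to 10.2). The core genes of the destruction complex had few: Apc had 6, 2, 2 and 2 reads, Axin2 4, 5, 3 and 5, and Gsk3b 5, 0, 5 and 0.

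Among nuclear genes, Crebbp and Ep300 encode paralogous acetyltransferases. Crebbp had 16, 42, 48 and 27 reads and was 2.19-fold higher in the canalicular than in the pseudoglandular library (1.20 to 4.16). Ep300 had 9, 2, 8 and 14 and was 5.41-fold lower there (1.12 to 51.4), a call lost by non-junction scaling (4.79-fold, 0.991 to 45.5). Hipk2, a kinase gene, had 6, 12, 29 and 19 reads and was 2.09-fold higher in the terminal sac than in the canalicular library (1.03 to 4.49) and 2.90-fold higher in the alveolar than in the pseudoglandular (1.12 to 8.89). The first of these was not called by non-junction scaling (1.99-fold, 0.985 to 4.28). Tcf7l2, which encodes another DNA-binding partner of beta-catenin, was at 3, 2, 0 and 2 reads.

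Of 26 other genes of catenins and cadherin junctions, 14 were listed, and 2, 4, 4 and 5 had 10 or more reads in the 4 pairs. Cdh11, a mesenchymal cadherin gene, had 4, 3, 29 and 10 reads, 8.35-fold higher in the terminal sac than in the canalicular library (2.59 to 42.8) and 2.27-fold lower in the alveolar than in the terminal sac (1.08 to 5.23), the latter not called by the median of ratios. Afdn, the gene of the junction protein afadin, had 17, 15, 4 and 4 reads, 4.34-fold lower in the terminal sac than in the canalicular library (1.38 to 18.0) and 4.63-fold lower in the alveolar than in the pseudoglandular (1.51 to 18.9). Ctnna1, the alpha-catenin gene, had 14, 18, 15 and 12 reads and was called in no comparison. No other measured gene of this list was called in these 4 comparisons.

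Circles of tissue marker genes also took different shares in the 4 libraries, which are shares of reads and not of cells. Circles of 7 of 16 lung epithelial marker genes had 0%, 0.0609%, 1.25% and 2.75% of listed junction reads in order of stage, led by Sftpc, the surfactant protein C gene, with 0, 0, 376 and 521 reads and Lamp3 with 0, 6, 64 and 110. Without these leading genes the epithelial share was 0%, 0.0416%, 0.0332% and 0.526%. Of the 149 alveolar reads that then remained, 108 were of Sftpb, the surfactant protein B gene, which was listed in no other library. Esrp1, an epithelial splicing regulator gene, had 0, 13, 3 and 2 reads and was 5.02-fold lower in the terminal sac than in the canalicular library (1.38 to 27.5). Circles of 10 of 10 endothelial genes had 0.0539%, 0.103%, 0.263% and 0.529%, and of 8 of 11 mesenchymal genes 0.223%, 0.128%, 0.343% and 7.003%. Eln alone had 1665 of the 1984 alveolar mesenchymal reads, and without it the shares were 0.212%, 0.122%, 0.202% and 1.13%. Trpc6 had 18, 25, 49 and 108 reads and Col1a2 17, 0, 0 and 171. Of other tissues, 5 of 8 cardiac and striated muscle genes had 0.470%, 0.147%, 0.196% and 0.272%, 6 of 7 immune genes 0.0385%, 0.170%, 0.183% and 0.0529%, and 0 of 6 cartilage genes were listed. The part of these genes and tissues in the values of the 5 hosts was not tested.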

How the data were processed

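The deposited lists give circRNAs per library. The names of their columns are those that CIRI writes. Per the submitters' processing notes, BWA, HISAT2 2.0.5, HTSeq, StringTie and cutadapt were used with the build mm10, and the sources used here do not give their roles. Per the file headers, the deposited values are raw counts of junction and of non-junction reads and, as a fraction, the junction ratio. The deposited alignment patterns count distinct patterns by the side of a read left unaligned. A blank non-junction count was read as 0.

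The deposited Ensembl identifier gave the host, and 4647 of 4653 such identifiers are in GENCODE M21. Exon numbers and sequences come from M21 transcripts on the same build, and the bases beside a circle were read where a transcript covers them. A circle was identified by chromosome, start and end. Shares of listed junction reads were compared for every host and circRNA with an exact conditional binomial 95% interval. Unlisted features were set to 3 reads. Junction ratios were compared by odds ratios with 0.5 added to each count. The comparison was tested on simulated counts that held counting error alone. That test does not cover variation between animals or libraries.

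The members and lists were chosen with earlier results of these data known. Named in full were member circles with 5 or more reads in some library, list genes that were called, the 6 list genes with most reads and the 2 hosts most like each member with 10 or more reads in some library. Called genes of the tissue lists beyond those 6, Esrp1 and Sftpb are not described, and Sftpb was named after its values were seen. Apc, Axin2, Gsk3b, Tcf7l2 and Ctnna1 were named for their role after their values were seen. Python 3.11.15 was used with numpy 2.4.6, pandas 2.3.3, scipy 1.17.1 and matplotlib 3.10.9. Alternatives were 2 other scalings, read minimums of 5 and 20, unlisted features at 1 read, merging of ends within 5 bases, and fewer circles per host. Counting each read name once and sums without single circles or leading list genes were chosen after seeing the data.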

Additional observations from a re-analysis of the deposited data

How the results depend on the processing

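Of 109 values of the member hosts under the alternatives, 102 kept direction and call, and 0 reversed. Many of these values could not differ, so the counts do not measure robustness. The read minimums only decide whether a host is tested. Leaving out circles of 10 or more reads with fewer than 3 alignment patterns removed no member circle. Unlisted features at 1 read matter only where a library did not list the host. The lower alveolar than terminal sac share of Lrp6 (log2 ratio) was no longer called at -0.91 by the median of ratios, -0.98 by non-junction reads, -0.59 with circles listed in 2 or more libraries and -0.71 with each read name counted once. The lower terminal sac share of Jup was just short of the call at -0.9997 by the median of ratios. Ctnnb1 gained a call in the canalicular against the pseudoglandular library at -1.09 with circles listed in 2 or more libraries, and in the alveolar against the terminal sac library at -3.35 with unlisted hosts at 1 read. Of 145 values of the member circles, 138 kept direction and call, with the same limits for the read minimums and unlisted features. The Lrp6 inner end, higher in the terminal sac than in the canalicular library, turned to -0.14 when merged with the outer end and to -0.72 with each read name counted once as well. The lower canalicular shares of Lrp6 exon 2 (-0.90) and Ctnnb1 exons 2 to 15 (-0.91) were not called with non-junction scaling, which shifts every ratio of that pair by 0.18. With 20 or more reads fewer features were tested. Lower hosts were then 61 of 597 (10.2%) in the canalicular against the pseudoglandular and 84 of 721 (11.7%) in the terminal sac against the canalicular library. They were 119 of 580 (20.5%) in the alveolar against the pseudoglandular library. Higher hosts were 72 of 672 (10.7%) in the alveolar against the terminal sac library. For circRNAs these were 43 of 442 (9.73%), 81 of 564 (14.4%) and 82 of 402 (20.4%) lower and 67 of 499 (13.4%) higher. In the terminal sac against the canalicular library 67 of 564 (11.9%) were higher. Non-junction scaling gave 169 higher hosts and 130 higher circRNAs in the canalicular against the pseudoglandular library, and unlisted features at 1 read gave 126 higher circRNAs. The other Wnt genes called in the alveolar against the pseudoglandular library were 2 of 8 with 20 or more reads, and the junction genes called were 1 of 2 in the terminal sac against the canalicular library. By the median of ratios, 0 junction genes were called in the alveolar against the terminal sac library, where Cdh11 had been. No paired analysis was possible because there is 1 library per stage, and for the same reason no library could be left out of a comparison. Direct repeats at circle ends were not used as a filter over all circles, since no genome was given. Between 1807 and 2083 circRNAs of a library had 2 reads, so the absence of a rare circle from a list depends on depth.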
